A study of Rattus norvegicus with 24 samples.

Results

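Cortical layer identity genes are the genes by which neurons of the upper and the deep layers of the cerebral cortex are told apart. The list held Cux1, Cux2, Rasgrf2 and Rorb for the upper layers and Fezf2, Bcl11b, Tbr1, Foxp2 and Tle4 for the deep layers. Of these 9 genes, 8 were found by gene name among the 32883 reference genes of the tables. Rasgrf2 had no row by that name and was not analysed here. RNA-Seq was run on the frontal cortex of 24 Sprague-Dawley rats, all adult males, with 8 rats in each group. The samples date from 24 hours after exposure, in which the Low and High rats inhaled an aerosol of tungsten particles. The tungsten concentration was 0 mg/m3 in Control, 5 mg/m3 in Low and 80 mg/m3 in High. The labels name no transgene and no other agent. The sources used here do not say how long the rats inhaled the aerosol. For every rat the deposited table gave the coverage of each gene, which is the mean read depth per base, and this was divided by the sum over all reference genes and multiplied by 1000000 to give the scaled coverage used below.

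The mammalian neocortex is built in layers, and its excitatory neurons take on a layer identity through transcription factors that repress one another. Neurons of the upper layers send axons mainly to other cortical areas, whereas neurons of layer 5 project to the brainstem and spinal cord and neurons of layer 6 project to the thalamus. Cux1 and Cux2 are homeodomain factors of upper-layer neurons that act on dendrites and synapses, and Rorb is a nuclear receptor of layer 4. Fezf2 is a zinc finger factor that specifies subcerebral projection neurons, and Bcl11b, also called Ctip2, acts downstream of it in layer 5. Tbr1 is a T-box factor of layer 6, Foxp2 is a forkhead factor of layer 6 neurons, and Tle4 is a Groucho family corepressor of corticothalamic neurons. Bcl11b and Foxp2 are also expressed by medium spiny neurons, the principal neurons of the striatum, which lies beneath the cortex.

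Among the members, Cux1, Cux2, Rorb and Tbr1 were positively related to one another from rat to rat, as described further on, and their promoters are shown to let a reader compare the sequences in front of them. Each is the 250 bases before the annotated gene start, 5′ to 3′ on the strand of the gene, from RefSeq on GRCr8, a build with coordinates that differ from those of the deposited tables. Of the 9 listed genes, 7 matched the RefSeq promoter table by symbol, all but Bcl11b and Foxp2. Capitals mark matches on either strand to a ROR site (AGGTCA), a T-box site (AGGTGTGA), a CUX site (ATCGAT) or a CCAAT box (CCAAT).
Cux1 (chr12:25743721-25743970, plus strand): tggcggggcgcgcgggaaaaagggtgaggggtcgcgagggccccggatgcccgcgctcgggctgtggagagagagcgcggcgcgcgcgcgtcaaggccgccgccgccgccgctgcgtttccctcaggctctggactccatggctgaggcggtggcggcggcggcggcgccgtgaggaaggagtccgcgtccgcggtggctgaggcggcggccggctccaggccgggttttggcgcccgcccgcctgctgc
Cux2 (chr12:40179032-40179281, plus strand): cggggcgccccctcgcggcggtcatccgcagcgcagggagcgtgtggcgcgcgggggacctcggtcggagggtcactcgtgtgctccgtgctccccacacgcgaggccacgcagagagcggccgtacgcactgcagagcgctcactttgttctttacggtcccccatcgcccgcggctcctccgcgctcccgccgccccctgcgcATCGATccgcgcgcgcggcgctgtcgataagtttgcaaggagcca
Rorb (chr1:225970974-225971223, minus strand): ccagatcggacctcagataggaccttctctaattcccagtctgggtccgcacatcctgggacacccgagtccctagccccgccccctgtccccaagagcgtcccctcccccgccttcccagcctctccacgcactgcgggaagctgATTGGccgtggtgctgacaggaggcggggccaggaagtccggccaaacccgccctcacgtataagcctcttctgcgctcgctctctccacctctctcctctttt
Tbr1 (chr3:66759553-66759802, plus strand): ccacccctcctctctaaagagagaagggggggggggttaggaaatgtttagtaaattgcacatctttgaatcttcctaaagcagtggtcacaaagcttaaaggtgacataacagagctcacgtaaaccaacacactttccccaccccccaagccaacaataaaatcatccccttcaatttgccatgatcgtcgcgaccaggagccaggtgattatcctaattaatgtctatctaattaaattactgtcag
Cux1 and Cux2 had a GC content of 78.0% and 72.4%, Rorb had 64.0% and Tbr1 had 44.0%, against a median of 51.2% over 33469 promoters of the same length. The Cux1 and Cux2 windows held 41 and 39 CG pairs, the Rorb window 15 and the Tbr1 window 4, with a median of 5 over all promoters. Cux2 held 1 match to the CUX site, which 0.750% of all promoters hold. Rorb held 1 match to the CCAAT box on the opposite strand, which 34.0% of all promoters hold. No match to the ROR site, held by 14.1% of all promoters, or to the T-box site, held by 0.959%, was present in these 4 windows.

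On the chromosomes as the tables give them, the members were spread over 6 of the rat's chromosomes. The submitters' notes name the build mRatBN7.2, but positions on chromosome 1 run to 282724300 in the tables and the build was not settled here. Cux1 (ENSRNOG00000001424, chr12:23151180-23445074, plus strand) and Cux2 (ENSRNOG00000001259, chr12:40018937-40219291, plus strand) share a chromosome. Rorb (ENSRNOG00000013413, chr1:234252757-234435839, plus strand) lies near Tle4 (ENSRNOG00000013239, chr1:231393379-231530786, minus strand). The tables place Rorb on the plus strand, whereas RefSeq places it on the minus strand of GRCr8. Fezf2 (ENSRNOG00000009206, chr15:12827707-12831496, plus strand) and Tbr1 (ENSRNOG00000005049, chr3:47677720-47685902, plus strand) are compact genes of 3.8 and 8.2 kb. Foxp2 (ENSRNOG00000054508, chr4:41364441-41942023, plus strand) spans 577.6 kb and Bcl11b (ENSRNOG00000005776, chr6:131834097-131926272, minus strand) spans 92.2 kb. Values are for whole genes, with all exons and untranslated regions that the annotation assigns to them.

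Counting error is not known because the tables hold no read counts. Sequenced bases were not counted but estimated for each rat from the ratio of coverage to FPKM, a column described below. The estimates spanned 3.34 to 6.42 gigabases for Low rats, 4.95 to 7.65 for High rats and 5.05 to 7.86 for Control rats. Summed reference coverage had medians of 1.81e+06 for Low, 2.28e+06 for High and 1.95e+06 for Control. The estimates had medians of 3.63 gigabases for Low, 6.52 for High and 5.54 for Control. The Low tables differ in kind, as given below, and the estimates cannot be told apart from this difference. They therefore cannot show whether Low rats were sequenced less deeply, which was not tested. Of the markers of cortical projection neurons, such as Nrgn, Slc17a7 and Camk2a, 9 of 9 were measured, with a summed scaled coverage of 1484 (High rat 67) to 4837 over the rats. Markers of striatal medium spiny neurons were also present in every rat, with 15 of 15 measured. Their summed level spanned 513 to 1225 (Control), 337 to 902 (Low) and 249.7 to 1908 (High). The highest sums belonged to Control rat 55 and High rats 65, 66 and 67, at 1220 to 1908. All of these except Isl1, which was at 0 in rats of Low and High, were above 0 in every rat, and the highest, Ppp1r1b, which encodes the dopamine-regulated phosphoprotein of medium spiny neurons, had a mean of 337 in Control. The Low tables list no loci assembled from the reads, whereas Control and High tables do, so the kind of table and the Low group cannot be told apart. In libraries 56 to 62, which are Control rat 56 and Low rats 57 to 62, the minus strand held 1.8 to 3.1% of mitochondrial coverage, against 0.04 to 0.06% elsewhere. The sources do not say whether rats shared litters or exposure runs, so p-values measure the spread between these 24 samples.

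Tbr1 was the highest of the layer genes in Control and Rorb the lowest. Scaled coverage is a level per base and so can be compared between genes. Tbr1 had a mean of 50.6 ± 12.4 (SD, n = 8), Cux2 38.2 ± 9.89, Bcl11b 31.8 ± 8.52, Cux1 22.2 ± 4.56, Fezf2 21.1 ± 4.96 and Tle4 20.6 ± 3.09. The ranges of neighbours in this order overlapped from Tbr1 down to Tle4. Compared within each Control rat, Tbr1 was above Cux2 in 7 of 8 rats, Cux2 above Bcl11b in 6 and Bcl11b above Cux1 in 7, whereas Cux1 was above Fezf2 in 4 and Fezf2 above Tle4 in 3. Foxp2 followed with 7.37 ± 2.61 and lay below Tle4 in 8 of 8 rats with no overlap of the ranges, and Rorb at 2.32 ± 1.03 lay below Foxp2 in the same way. Among the 15644 genes tested, the mean over all rats placed Tbr1 at the 80.4th percentile, Foxp2 at the 31.8th and Rorb at the 9.8th.

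The low place of Rorb depended on the column that was read. Coverage and FPKM, which is also per length, are proportional for most genes, and 78.3% of the genes tested had a ratio of the 2 columns within 1% of the median of their rat. Cux1, Cux2, Fezf2, Tbr1 and Foxp2 had a ratio within this margin in every rat. In Rorb the Control ratio lay between 0.0853 and 0.171, the Low ratio between 0.146 and 0.148 and the High ratio between 0.0673 and 0.0892. A ratio under 0.2 was found for 0.639% of the genes tested. The High rats thus had lower ratios than all Low rats. For Tle4 the ratio ran between 0.779 and 0.999 for the Control rats (median 0.980), between 0.674 and 0.817 for the Low rats (median 0.743) and between 0.824 and 0.958 for the High rats (median 0.852), so Low lay below High without overlap. On FPKM divided by its sum, Rorb had a mean of 20.4 ± 10.6 in Control and took the 6th place, between Tle4 and Fezf2, with overlapping ranges. On that scale Cux2 was above Bcl11b in 4 of 8 Control rats and Bcl11b above Cux1 in 8.

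**Figure D1:**
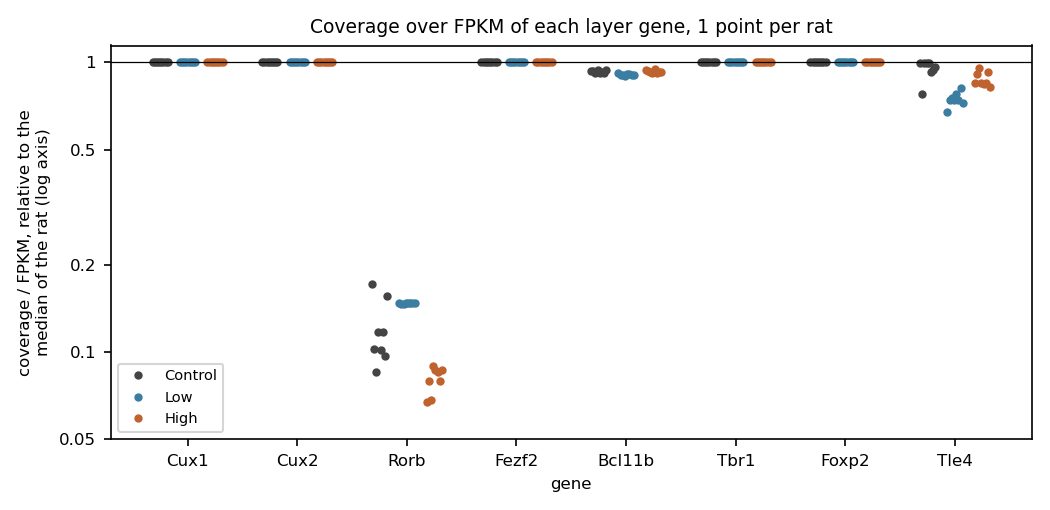
Coverage divided by FPKM for each layer gene (log axis), relative to the median ratio over genes of the same rat, with 1 point per rat and colours for Control, Low and High. Rorb lies between 0.0673 and 0.171 and Tle4 between 0.674 and 0.999, with Low lowest for Tle4. Bcl11b lies between 0.898 and 0.952, whereas Cux1, Cux2, Fezf2, Tbr1 and Foxp2 lie at 1.

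The comparison of the exposed groups with Control asks whether inhaled tungsten changed the layer genes, and none of the 8 passed the test in any of the 3 comparisons. The test was limma on log2(scaled coverage + 1) with the 24 rats in 1 fit and Benjamini-Hochberg adjustment over the 15644 genes whose mean was 1 or more, at an adjusted p under 0.05. All 8 members passed this filter, and fold changes on this scale understate changes of low genes such as Rorb. In Low versus Control 0 of 8 members were called, while 6.11% of all genes tested were called. In High versus Control 0 of 8 members and 0% of all genes were called. In Low versus High 0 of 8 members were called, against 11.7% of all genes. At an unadjusted p under 0.05, Fezf2 alone counted in Low versus Control and in Low versus High and no member in High versus Control, where the shares of all genes were 18.4%, 29.1% and 2.11%. An exact Wilcoxon rank-sum test with the same adjustment also called 0 members in each comparison. No member had groups without overlap in any comparison, which 1.53% of all genes had in Low versus Control, 0.00639% in High versus Control and 2.26% in Low versus High.

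**Figure D2:**
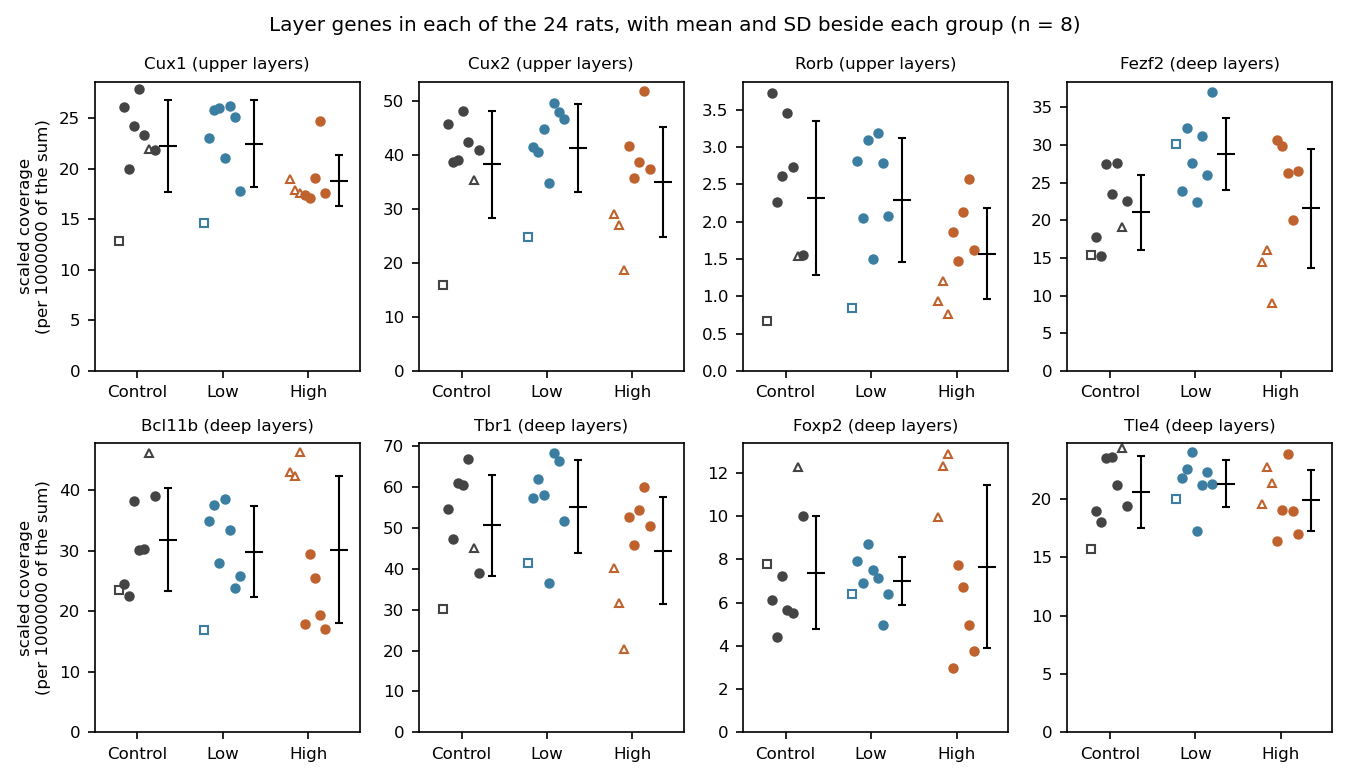
Scaled coverage of each layer gene in every rat of Control, Low and High, with the mean and SD (n = 8) beside each group. Squares are Control rat 49 and Low rat 57, triangles are Control rat 55 and High rats 65, 66 and 67, and the groups overlap for every gene.

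Of the upper-layer genes, Cux1 was the one with the narrowest spread. Its scaled coverage ran between 12.8 and 27.8 for the Control rats (median 22.6), between 14.6 and 26.2 for the Low rats (median 24.1) and between 17.1 and 24.7 for the High rats (median 17.8). The lowest values of Control and Low belonged to rats 49 and 57, and 7 of the 8 High rats lay between 17.1 and 19.04. The log2 fold change was 0.02 in Low versus Control (SE 0.130, limma adjusted p = 0.958), -0.21 in High versus Control (SE 0.130, adjusted p = 0.999) and 0.23 in Low versus High (SE 0.130, adjusted p = 0.246). Control rat 49 and Low rat 57 also had the highest share of coverage in ribosomal protein genes within their groups, 2.64% and 2.97%. Without these 2 rats, a choice made after seeing the data, Cux1 was called in Low versus High (log2 fold change 0.31, adjusted p = 0.0122), where 28.8% of all genes were then called. In High versus Control it was then at -0.31 (adjusted p = 0.0587), where 2.49% of all genes were called, and in Low versus Control, where 4.32% were called, no member was.

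Cux2 had a wider range within each group than the difference between groups. It lay between 15.9 and 48.1 for the Control rats (median 39.9), between 24.8 and 49.6 for the Low rats (median 43.0) and between 18.6 and 51.7 for the High rats (median 36.6). Rat 49 of Control stood apart at 15.9, since the other 7 Control rats had at least 35.3. The log2 fold changes were 0.14 in Low versus Control (95% interval -0.27 to 0.55), -0.12 in High versus Control (-0.53 to 0.29) and 0.26 in Low versus High (-0.15 to 0.67). Without Control rat 55 and High rats 65, 66 and 67, those with the highest striatal sums, the High versus Control value was 0.14 and not called.

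Rorb was read at low coverage, between 0.664 and 3.72 for the Control rats (median 2.44), between 0.838 and 3.19 for the Low rats (median 2.44) and between 0.764 and 2.57 for the High rats (median 1.54). The lowest rats were again 49 in Control and 57 in Low, with rat 67 in High. High had the lower median, and the fold change was -0.34 in High versus Control (SE 0.204, limma adjusted p = 0.999) and 0.35 in Low versus High (adjusted p = 0.263). With FPKM divided by its sum the 2 values became 0.02 and -0.35, so the direction of both turned with the column. Without rats 49 and 57 Rorb was called in Low versus High on scaled coverage (0.46, adjusted p = 0.0403), in the comparison in which 28.8% of all genes were called. In Low versus Control the value was 0.01 on scaled coverage and -0.34 on FPKM divided by its sum, neither called.

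Among the deep-layer genes, Fezf2 had the largest difference between groups. Its scaled coverage ran between 15.3 and 27.6 for the Control rats (median 20.8), between 22.4 and 37.0 for the Low rats (median 28.9) and between 8.95 and 30.6 for the High rats (median 23.1). The Low rats lay high, but the ranges overlapped, and in High the lowest 3 values belonged to rats 65, 66 and 67. The log2 fold change was 0.45 in Low versus Control (95% interval 0.05 to 0.85, limma adjusted p = 0.205). It was 0.48 in Low versus High (0.08 to 0.88, adjusted p = 0.105) and -0.03 in High versus Control (-0.43 to 0.37, adjusted p = 0.999). Leaving out each rat in turn gave 0.39 to 0.51 in Low versus Control, with adjusted p from 0.0975 to 0.371. With libraries 56 to 62 as a covariate the value was 0.48 (adjusted p = 0.581). Without rats 55, 65, 66 and 67 Low versus High fell to 0.11 (adjusted p = 0.678) and High versus Control was 0.33, also not called.

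Bcl11b ran between 22.6 and 46.1 for the Control rats (median 30.2), between 17.0 and 38.4 for the Low rats (median 30.7) and between 17.1 and 46.3 for the High rats (median 27.5). Its 4 highest values in the study, from 42.3 to 46.3, were those of Control rat 55 and High rats 67, 65 and 66. The log2 fold changes were -0.09 in Low versus Control (95% interval -0.53 to 0.35), -0.13 in High versus Control (-0.57 to 0.31) and 0.04 in Low versus High (-0.40 to 0.49). Without those 4 rats the values were -0.01, -0.43 and 0.42, and none was called (limma adjusted p = 0.184 for the last). With the mean log2 level of the striatal list as a covariate they were 0.15, -0.03 and 0.17, with no call.

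Tbr1 ran between 30.1 and 66.9 for the Control rats (median 51.0), between 36.5 and 68.3 for the Low rats (median 57.7) and between 20.3 and 59.9 for the High rats (median 48.2). High rat 67 had the lowest Tbr1 and the lowest Fezf2 of all 24 rats together with the highest Bcl11b and Foxp2. The log2 fold change of Tbr1 was 0.14 in Low versus Control (SE 0.192, limma adjusted p = 0.741), -0.21 in High versus Control (adjusted p = 0.999) and 0.35 in Low versus High (adjusted p = 0.236). Without rats 55, 65, 66 and 67 the last of these was 0.04 and High versus Control was 0.08.

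Foxp2 had the largest spread in High and one of the smallest in Low. It ran between 4.41 and 12.3 for the Control rats (median 6.67), between 4.98 and 8.72 for the Low rats (median 7.01) and between 2.96 and 12.9 for the High rats (median 7.22). Its coefficient of variation was 49.2% in High, 35.4% in Control and 16.1% in Low, and the difference in spread was not tested. The log2 fold changes were -0.02 in Low versus Control (95% interval -0.49 to 0.44), -0.02 in High versus Control (-0.49 to 0.44) and 0.00 in Low versus High (-0.46 to 0.47). The intervals run from -0.49 to 0.47 over the 3 comparisons, so the data leave room for changes within them. They are not a limit of detection. Without rats 55, 65, 66 and 67 Foxp2 stood at 0.08, -0.33 and 0.41, none of them called.

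Tle4 was the most even of the members, between 15.7 and 24.4 for the Control rats (median 20.3), between 17.3 and 24.04 for the Low rats (median 21.6) and between 16.4 and 23.9 for the High rats (median 19.3). The log2 fold changes were 0.06 in Low versus Control (95% interval -0.13 to 0.24), -0.05 in High versus Control (-0.23 to 0.14) and 0.10 in Low versus High (-0.08 to 0.29). It was called on FPKM divided by its sum, at 0.36 in Low versus Control (SE 0.0931, limma adjusted p = 0.0105) and 0.29 in Low versus High (adjusted p = 0.0313). With that column 11.8% and 16.8% of all genes were called, so 1 of 8 members is near the background. As given above, the ratio of coverage to FPKM of Tle4 itself was lowest in the Low tables.

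**Figure D3:**
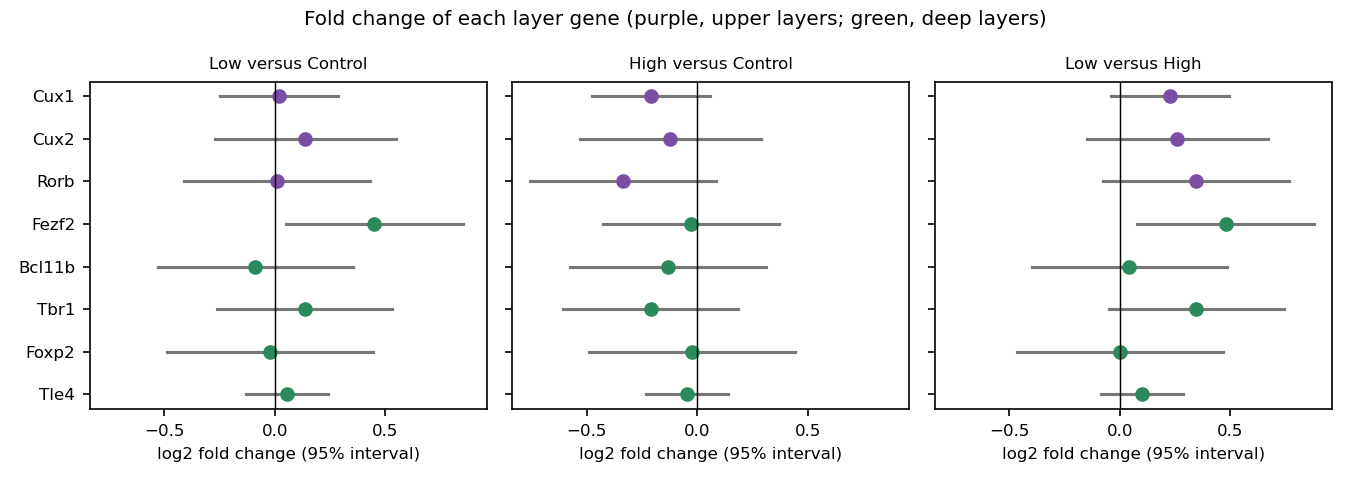
Log2 fold change of each layer gene on log2(scaled coverage + 1), with the 95% interval of limma, for Low versus Control, High versus Control and Low versus High. The intervals include 0 for every gene except Fezf2 in both comparisons of Low, at 0.45 and 0.48, and no gene was called after adjustment.

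Set side by side, upper- and deep-layer genes had differences that overlapped between the groups, and whether these differences changed with exposure was not tested. The median log2 fold change over the 3 upper-layer genes was 0.02 in Low versus Control, -0.21 in High versus Control and 0.26 in Low versus High. Over the 5 deep-layer genes it was 0.06, -0.05 and 0.10, beside medians over all genes tested of 0.06, -0.03 and 0.09. All 8 members had values below 0 in High versus Control, but on unscaled coverage Cux2, Fezf2, Bcl11b, Foxp2 and Tle4 had values above 0. Within each rat, the mean log2 level of the upper-layer genes minus that of the deep-layer genes was -0.70 ± 0.38 in Control (SD, n = 8), -0.75 ± 0.23 in Low and -0.83 ± 0.36 in High. The ranges were -1.29 to -0.19, -1.18 to -0.44 and -1.21 to -0.23, and they overlapped almost fully. The lowest rat was 49 in Control, 57 in Low and 67 in High. Without Bcl11b and Foxp2 the means were -1.03 ± 0.27, -1.19 ± 0.26 and -1.16 ± 0.19, and rat 67 was then no longer the lowest of High, at -0.96 against -1.38 in rat 69. On FPKM divided by its sum they were 0.13 ± 0.52, -0.10 ± 0.29 and 0.09 ± 0.39, so the sign in Control and High turned with the column, in which Rorb stands higher. In whole tissue, fewer cells of a type and less RNA per cell cannot be told apart.

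The members varied from rat to rat more than most genes. Over all 24 rats they fell into 2 sets that did not follow the division into upper and deep layers, but the second set did not hold in every part of the rats. The coefficient of variation exceeded the median over all genes tested, at 16.9%, 15.5% and 14.4% for Control, Low and High, in 7, 7 and 6 of the 8 members. Correlations were computed between all 28 pairs of members over the 24 rats, on log2 values less the group mean, with permutation tests (100000 permutations, two-sided) and Benjamini-Hochberg adjustment over the 28 pairs. Of these, 16 had an adjusted p under 0.05, with 12 positive and 4 negative. The smallest p that the permutations can give, 1e-05, was reached by 5 of them for Pearson's r. The share among pairs of all genes tested was not computed, so whether 16 of 28 is unusual was not tested.

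**Figure D4:**
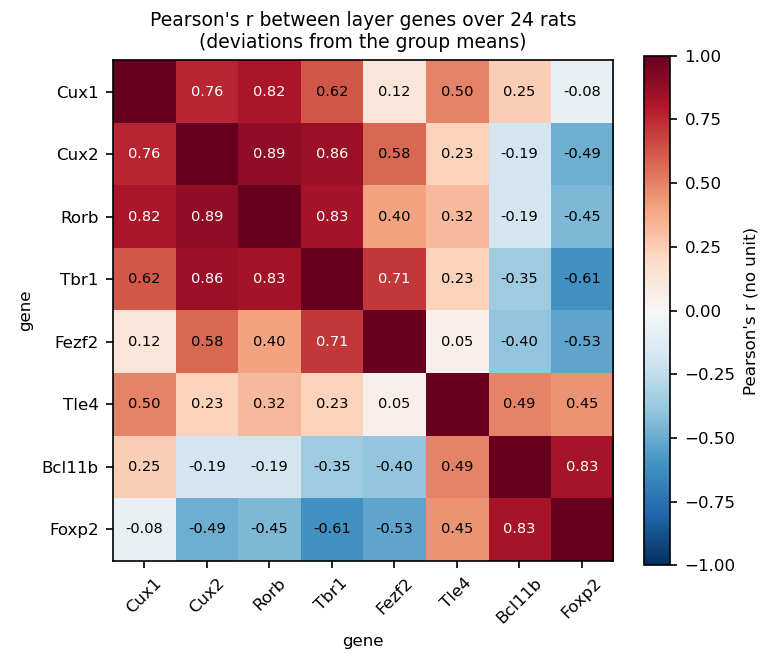
Pearson's r between each pair of layer genes over 24 rats, on deviations of log2(scaled coverage + 1) from the group means. Cux1, Cux2, Rorb and Tbr1 correlate positively at 0.62 to 0.89, Bcl11b and Foxp2 at 0.83, and Foxp2 is negative with Cux2, Rorb, Tbr1 and Fezf2.

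In the first set, the deep-layer gene Tbr1 went with the upper-layer genes. Cux2 and Rorb had r = 0.89 and rho = 0.86 (adjusted permutation p = 5.6e-05 for r), and r was 0.86 without Control rat 49 and High rat 67, the rats farthest from the median of Cux2. For Cux2 and Tbr1, r was 0.86 and rho 0.82 (adjusted permutation p = 5.6e-05), with 0.77 without the same 2 rats. Rorb and Tbr1 had r = 0.83, rho = 0.81 and, without rats 49 and 57, r = 0.81. These 3 pairs held within libraries 57 to 62 of Low (r from 0.80 to 0.97, n = 6) and within the 17 rats outside libraries 56 to 62 (r from 0.83 to 0.93). Cux1 and Rorb had r = 0.82 and rho = 0.74, but 0.65 without rats 49 and 57, and Cux1 and Cux2 fell from 0.76 to 0.47 without them. Fezf2 was joined to Tbr1 (r = 0.71, rho = 0.66, adjusted permutation p = 0.0004) and this fell to 0.40 without rats 55, 65, 66 and 67.

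The second set was formed by Bcl11b and Foxp2, with r = 0.83 and rho = 0.80 (adjusted permutation p = 5.6e-05) and r = 0.85 without Low rat 57 and High rat 67. Within libraries 57 to 62 of Low r was 0.38 (n = 6), and among the 17 other rats it was 0.91. Foxp2 was negatively related to Tbr1 (r = -0.61, rho = -0.63, adjusted permutation p = 0.00538) and to Fezf2 (r = -0.53, rho = -0.46, adjusted permutation p = 0.0189), although all are deep-layer genes. For Foxp2 and Tbr1 r was -0.55 without Control rat 49 and High rat 67, but -0.31 without rats 55, 65, 66 and 67 and 0.22 within libraries 57 to 62 of Low (n = 6). For Foxp2 and Fezf2 r was 0.01 without rats 55, 65, 66 and 67, so their relation over all rats rests on those rats. Within libraries 57 to 62 of Low r was -0.51 for these genes (n = 6). Foxp2 was also negatively related to Cux2 (r = -0.49, rho = -0.64, adjusted permutation p = 0.0308) and to Rorb (r = -0.45, rho = -0.48, adjusted permutation p = 0.0496). Without rats 55, 65, 66 and 67 these were -0.21 and -0.20, and within libraries 57 to 62 of Low they were 0.58 and 0.69 (n = 6), so neither held within those libraries. Tle4 stood between the sets, with r = 0.50 to Cux1 (adjusted permutation p = 0.0289) and 0.49 to Bcl11b (adjusted permutation p = 0.0304). It had r = 0.45 to Foxp2 (adjusted permutation p = 0.0496), where rho did not pass (rho = 0.35, adjusted permutation p = 0.147). For Cux1 r fell to 0.31 without rats 49 and 57. For Bcl11b and Foxp2 it was 0.37 and 0.24 without rats 55, 65, 66 and 67. Within libraries 57 to 62 of Low it was -0.04 and 0.38 (n = 6).

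Because Bcl11b and Foxp2 are also genes of medium spiny neurons, each member was set against the mean log2 level of the 15 striatal genes and against the share of ribosomal protein genes, 16 relations in all. The shares of all genes with such relations were not computed, so whether the members stand out was not tested. Foxp2 followed the striatal list most closely (r = 0.91, rho = 0.93, adjusted permutation p = 4e-05), followed by Bcl11b (r = 0.88, rho = 0.86, adjusted permutation p = 4e-05). Without High rats 65 and 68, which lie farthest out on the list, r was 0.89 and 0.87, and without rats 55, 65, 66 and 67 it was 0.84 and 0.76. Within libraries 57 to 62 of Low the values were 0.81 and 0.81 (n = 6). In these libraries Cux1, Cux2 and Rorb were also positively related to the list, with r = 0.70, 0.68 and 0.66. Fezf2 (r = -0.65, rho = -0.58, adjusted permutation p = 0.00152) and Tbr1 (r = -0.52, rho = -0.53, adjusted permutation p = 0.0165) went the other way, but r was -0.27 and -0.17 without rats 55, 65, 66 and 67. Cux1 (r = 0.12), Cux2 (r = -0.36), Rorb (r = -0.28) and Tle4 (r = 0.37) did not pass the test for r, although the rho of Cux2 did (rho = -0.54, adjusted permutation p = 0.0138). Without rats 55, 65, 66 and 67 the r of Cux2 was 0.015.

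**Figure D5:**
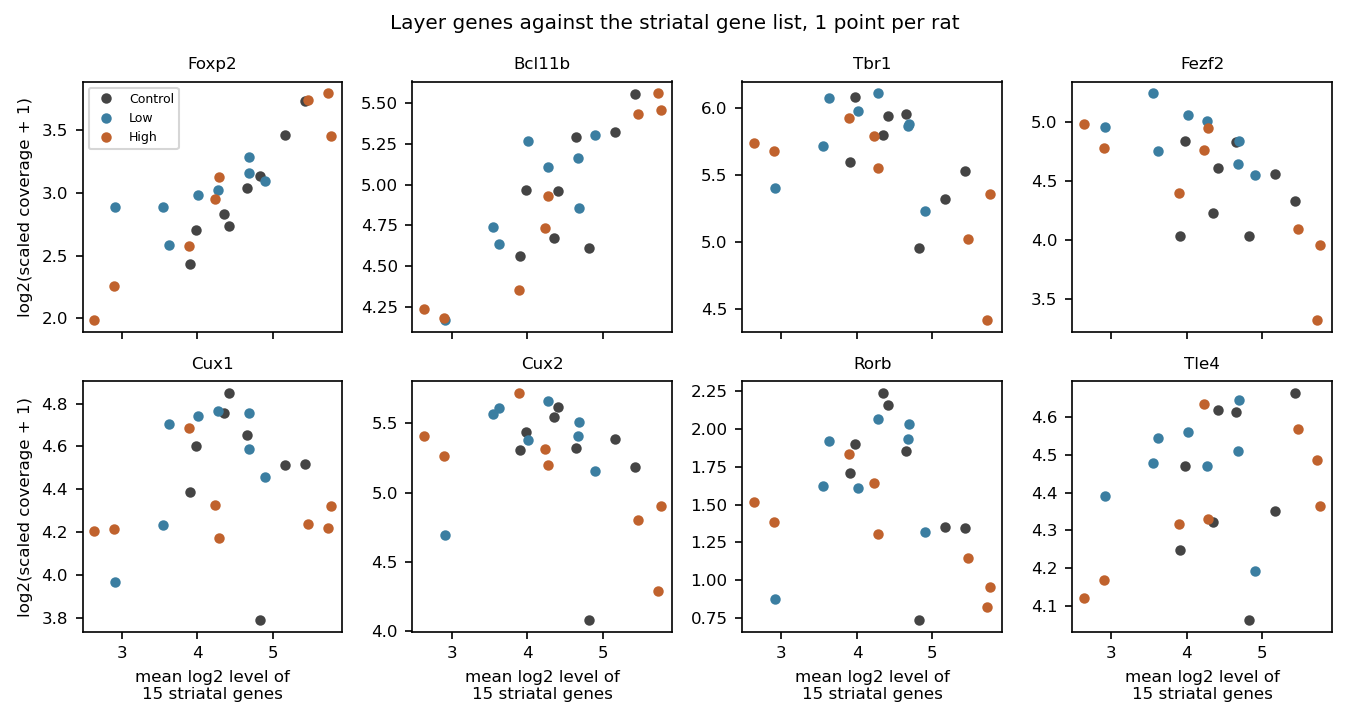
Log2(scaled coverage + 1) of each layer gene against the mean log2 level of 15 striatal genes, 1 point per rat, coloured by group. Foxp2 and Bcl11b rise with the striatal list (r = 0.91 and 0.88 on deviations from the group means), High rat 67, near its high end, has the lowest Tbr1 and Fezf2 of all rats, and Cux1 has no clear trend.

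The share of coverage in ribosomal protein genes, 1.97 to 2.97% per rat over 93 genes, followed the first set inversely. It had r = -0.84 with Rorb (rho = -0.76, adjusted permutation p = 4e-05), -0.78 with Cux2 (rho = -0.71, adjusted permutation p = 4e-05), -0.74 with Tbr1 (rho = -0.68, adjusted permutation p = 0.000288) and -0.62 with Cux1 (rho = -0.42, adjusted permutation p = 0.00316). Without rats 49 and 57, which lie farthest out on this share, the values were -0.75, -0.67, -0.70 and -0.31. Foxp2 was positively related to it (r = 0.61, rho = 0.70, adjusted permutation p = 0.00316), but r was -0.79 within libraries 57 to 62 of Low (n = 6), so this relation did not hold within them. Fezf2, Bcl11b and Tle4 did not pass the test for r (r = -0.37, 0.31 and -0.09), and r of Bcl11b was 0.81 without rats 49 and 57 but -0.82 within libraries 57 to 62 of Low (n = 6). The rho of Bcl11b did pass (rho = 0.49, adjusted permutation p = 0.0267). The part of this share in the relations between members was not tested.

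The genes most like each member give a further view of the 2 sets, as a description over 24 rats and 15644 genes. Most like Cux2 were Col5a1 (r = 0.98), Camk2a (r = 0.97), a kinase subunit of excitatory synapses, and Phf24 (r = 0.96). Rorb was nearest to Kif5c (r = 0.94), a neuronal kinesin, Camta1 (r = 0.93) and Tmem132d (r = 0.93). Tbr1 was nearest to Nptx1 (r = 0.97), a neuronal pentraxin, Gabbr2 (r = 0.96), a GABA-B receptor subunit, and Ptprk (r = 0.95). For Fezf2 the nearest genes were Vxn (r = 0.95), Shf (r = 0.95) and Ephb6 (r = 0.94), and for Cux1 they were Pitpnm2 (r = 0.92), Fam168b (r = 0.91) and Btbd3 (r = 0.90). Foxp2 was nearest to Ppp1r2 (r = 0.97), an inhibitor of protein phosphatase 1, Gpr149 (r = 0.95) and Rarb (r = 0.94), a retinoic acid receptor that is on the striatal list. Bcl11b was nearest to Sulf1, Cacng4 and Kcna5 (r = 0.96 each), and Tle4 to Acsl1 (r = 0.90), Daam1 (r = 0.89) and Impad1 (r = 0.88).

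Other genes that mark cortical layers were taken from lists written from general knowledge. Of 16 further upper-layer genes tested, 0 rose and 1 fell in Low versus Control, and 1 rose and 1 fell in Low versus High. Of all genes tested 1.23% rose and 4.88% fell in Low versus Control, and 5.3% rose and 6.39% fell in Low versus High. The gene that fell was Pou3f3, a POU factor of upper-layer neurons, with a log2 fold change of -0.43 in Low versus Control (SE 0.0647, limma adjusted p = 4.8e-05) and -0.38 in Low versus High (adjusted p = 0.000249). Its scaled coverage lay between 37.9 and 47.6 for the Control rats, between 26.7 and 35.7 for the Low rats and between 35.6 and 46.04 for the High rats, so Low lay below Control without overlap. Kcnh5, a potassium channel, rose in Low versus High (1.10, adjusted p = 0.0179) on levels of 0.933 to 13.1 in Low and 0.486 to 3.85 in High.

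Of 15 further layer 5 genes, 1 rose in Low versus Control and 2 rose in Low versus High, with no decreases called. Etv1, an ETS factor of layer 5 neurons, rose by 0.41 (adjusted p = 0.0376 by limma) and 0.49 (adjusted p = 0.00715) on the log2 scale. It lay between 23.9 and 36.6 for the Control rats, between 32.5 and 47.0 for the Low rats and between 17.6 and 39.2 for the High rats. Pou3f1, a POU factor, rose in Low versus High (0.39, limma adjusted p = 0.0489). Of 15 further layer 6 genes, Zfpm2, a cofactor of GATA factors, was the 1 that rose, by 0.53 in Low versus Control (limma adjusted p = 0.0221) and 0.57 in Low versus High (adjusted p = 0.00891). The medians of the lists in Low versus Control were 0.02 for the upper layers, 0.26 for layer 5 and 0.01 for layer 6, beside 0.06 over all genes, and in Low versus High they were 0.05, 0.26 and 0.21, beside 0.09. In High versus Control limma called 0 genes of each of these lists, as of all genes, and the medians were -0.05, 0.01 and -0.29, with 1, 0 and 3 genes at an unadjusted p under 0.05. Over all genes the median in that comparison was -0.03 and 2.11% were at an unadjusted p under 0.05.

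Genes of the same families and of the same regulatory network were not called in any comparison. Of 9 relatives of the members tested, among them Tle5 (mean 782 in Control), Rasgrf1 (196) and Foxp1 (35.0), 8 were higher in Low than in Control with a median log2 fold change of 0.12, beside 0.06 over all genes. In that comparison limma called 0 of the 9, against 6.11% of all genes, and 3 were at an unadjusted p under 0.05, against 18.4% of all genes. Of 12 genes that act with the members, among them Nr2f1 (62.5), Ski (53.2), a transcriptional corepressor, and Lmo4 (44.95), limma called 0 in Low versus Control, with 1 at an unadjusted p under 0.05 and a median of 0.07. The 9 markers of projection neurons had a median of 0.19 in Low versus Control, -0.20 in High versus Control and 0.38 in Low versus High, with 0 called by limma and 1, 0 and 2 at an unadjusted p under 0.05. Over all genes tested the medians were 0.06, -0.03 and 0.09, and 18.4%, 2.11% and 29.1% were at an unadjusted p under 0.05. All 15 striatal genes were lower in Low than in Control, with a median of -0.57, but 0 were called by limma and 0 had an unadjusted p under 0.05. Their part in the differences of Bcl11b and Foxp2 between groups was not tested beyond the covariate fit. That fit is given above for Bcl11b and in the closing section for Foxp2. Of 12 interneuron, 8 oligodendrocyte, 7 astrocyte and 7 microglia markers, limma called 0 in each comparison, where it called 6.11%, 0% and 11.7% of all genes. Of 2 endothelial markers tested, Slco1a4, a transporter of brain endothelium, rose in Low versus High (0.33, limma adjusted p = 0.0235), and of 4 markers of choroid plexus and meninges and 5 of neighbouring regions 0 were called.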

How the data were processed

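Frontal cortex RNA-Seq of 24 rats was grouped by the sample titles. The submitters' notes name FastQC, Trimmomatic, TopHat2 and StringTie and the build mRatBN7.2, with no tool versions given in the sources used here. The authors deposited StringTie tables per rat with coverage, a mean read depth over the bases of a gene that carries no correction for library size. FPKM, as deposited by the authors, is per kilobase and per library size. The TPM deposited by the authors sums to 1000000 over the reference genes in Low tables and to 698062 to 981151 in Control and High tables, where assembled loci are listed beside them, so there it is a relative signal only.

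Coverage was summed per gene identifier, divided by the sum over reference genes and multiplied by 1000000. The genes averaging 1 or more over the rats were tested with limma 3.58.1 (trend, robust, two-sided) in R 4.3.3 on log2(value + 1), with the 3 groups in 1 fit. Limma and the permutation test were tested on simulated data. Correlations and plots used Python 3.11.15 with numpy 2.4.6, scipy 1.17.1, pandas 2.3.3 and matplotlib 3.10.9. Members and lists were chosen with earlier results of these data known. Named genes are the members, up to 6 genes of a list past the threshold, otherwise up to 3 genes of highest level, and the 3 genes with a symbol most like each member by Pearson's r. Values of 1 gene of the lists are not reported here, while list counts and medians include it. Alternatives are given in the closing section.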

Additional observations from a re-analysis of the deposited data

Results flagged for a closer look

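In 27 sets of 8 rats (8 members and the upper minus deep difference in 3 groups), 2 single rats stood farther from the rest than Dixon's 95% limit for the gap over the range, and chance gives about 1 in 20. Cux1 in High rat 71 had a scaled coverage of 24.7, above 17.1 to 19.0 in the other 7 High rats (gap over range 0.74). The same rat had the highest Cux2, Rorb and Tbr1 of High. Cux2 in Control rat 49 had 15.9, below 35.3 to 48.1 in the other 7 Control rats (gap over range 0.604). Rat 49 was also the lowest Control rat for Cux1, Rorb, Tbr1 and Tle4.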

How the results depend on the processing

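No paired analysis was possible because the library numbers are unique to each rat and the groups share none. The count of members called stayed at 0 in all 3 comparisons with another pseudocount (0.1), without the filter or with a minimum mean of 5, with each other scaling of coverage, with only the groups compared, with the exact Wilcoxon test and with libraries 56 to 62 as a covariate. On the FPKM column 6 members (Cux1, Cux2, Fezf2, Bcl11b, Tbr1 and Tle4) were called in Low versus Control and 6 in Low versus High, where 89.7% and 89.8% of all genes were called and the median of all genes moved to 0.53 and 0.52. The TPM column called 2 members, Fezf2 and Tle4, in each of these comparisons, with medians of all genes of 0.17 and 0.15. Unscaled coverage moved the median of all genes to 0.14 in High versus Control and to -0.12 in Low versus High. FPKM divided by its sum called 1 member, Tle4, in both comparisons of Low, and leaving out rats 49 and 57 called 2, Cux1 and Rorb, in Low versus High. Both of these, the striatal covariate and leaving out rats 55, 65, 66 and 67 were added with the data already seen, and the last 2 called 0 members. The upper minus deep difference, -0.70 in Control, -0.75 in Low and -0.83 in High, became 0.113, -0.101 and 0.066 on the FPKM column, 0.133, -0.097 and 0.092 on the TPM column, 0.133, -0.097 and 0.093 on FPKM divided by its sum, and -1.19 in Low without Bcl11b and Foxp2. Leaving out a rat gave -0.77 to -0.61, -0.79 to -0.69 and -0.92 to -0.78. Adding assembled loci on the strand of the member moved 15 of 16 mean levels by more than 1 SD. Such loci can repeat the gene itself, as given below for Fezf2 and Tle4. A large move was then built in, and no conclusion is drawn from it. Many uncalled fold changes near 0 turned sign, and the cause was not tested. On unscaled coverage, the sign turned for Cux1 -0.015 and Rorb -0.00042 in Low versus Control, and for Cux2 0.058, Fezf2 0.15, Bcl11b 0.045, Foxp2 0.14 and Tle4 0.13 in High versus Control, and for Bcl11b -0.17, Foxp2 -0.19 and Tle4 -0.11 in Low versus High. With median-of-ratios scaling, the sign turned for Cux1 -0.038, Rorb -0.025 and Tle4 -0.00052 in Low versus Control, and for Fezf2 0.0078 and Foxp2 0.0061 in High versus Control, and for Bcl11b -0.049 and Foxp2 -0.079 in Low versus High. With libraries 56 to 62 as a covariate, the sign turned for Cux1 -0.013 in Low versus Control, and for Foxp2 0.026 in High versus Control, and for Bcl11b -0.20 and Foxp2 -0.30 in Low versus High. On FPKM divided by its sum, the sign turned for Cux1 -0.012 and Rorb -0.34 in Low versus Control, and for Rorb 0.016 and Tle4 0.066 in High versus Control, and for Rorb -0.35 and Foxp2 -0.028 in Low versus High. Without rats 49 and 57, the sign turned for Cux1 -0.0051, Rorb -0.0067 and Foxp2 0.0097 in Low versus Control. Without rats 55, 65, 66 and 67, the sign turned for Rorb -0.033 and Foxp2 0.081 in Low versus Control, and for Cux2 0.14, Fezf2 0.33 and Tbr1 0.075 in High versus Control, and for Cux2 -0.0081 in Low versus High. On the TPM column, the sign turned for Rorb -0.22, Bcl11b 0.041 and Foxp2 0.063 in Low versus Control, and for Rorb 0.055, Fezf2 0.018, Foxp2 0.022 and Tle4 0.11 in High versus Control, and for Rorb -0.27 in Low versus High. On the FPKM column, the sign turned for Bcl11b 0.43 and Foxp2 0.36 in Low versus Control, and for Rorb 0.035, Fezf2 0.023, Foxp2 0.029 and Tle4 0.10 in High versus Control. With the striatal list as a covariate, the sign turned for Rorb -0.058, Bcl11b 0.15 and Foxp2 0.23 in Low versus Control, and for Foxp2 0.090 in High versus Control. With the sum taken without mitochondrial genes, the sign turned for Foxp2 0.0024 in Low versus Control. Leaving out each rat in turn called 0 members in every comparison, and values spanned 0 at -0.085 to 0.098 for Cux1, -0.027 to 0.24 for Cux2, -0.12 to 0.13 for Rorb, -0.15 to 0.017 for Bcl11b and -0.10 to 0.081 for Foxp2 in Low versus Control, at -0.11 to 0.13 for Fezf2 and -0.14 to 0.12 for Foxp2 in High versus Control, at -0.054 to 0.15 for Bcl11b and -0.14 to 0.12 for Foxp2 in Low versus High.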

Other observations

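Control and High tables also list loci assembled from the reads. At the members, Control rat 56 had assembled coverage on the opposite strand of all 8 genes, from 2.92 to 191 per gene, whereas the other 15 Control and High rats had 0 to 15.2. On the same strand, Fezf2 was repeated by 1 assembled locus in 16 of 16 Control and High rats, with the same coverage within 0.1% in 12 of them. Tle4 was repeated in the same way in 12 of 16. Foxp2 was covered by up to 27 separate assembled loci in a Control rat (rat 49) and by up to 15 in a High rat.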
